A study of Homo sapiens with 6 samples.

Results

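MYC, MAX and their relatives form a network of paired transcription factors, followed here through 10 genes named for it: MYC, MYCN, MYCL, MAX, MXD1, MXD3, MXD4, MXI1, MNT and MLX. The genes were taken by name, with earlier results of these data known, and all 10 were found among the 24432 gene symbols measured. RNA was sequenced from the established liver cancer line PLC/PRF/5, derived from a human hepatocellular carcinoma and labelled wild type, in 3 libraries of lenvatinib-sensitive cells (control, grown without the drug step described for the other group) and 3 libraries of lenvatinib-resistant cells. Lenvatinib inhibits several receptor tyrosine kinases and is used against this cancer. The resistant cells had been grown in rising lenvatinib. Exposure began at 20 µmol/L, went up by 0.5 mmol/L with every passage and ended at 40 mmol/L, as the labels have it, in units that do not match each other. By the labels, both groups share the parental line and its medium. The labels do not say whether the resistant strain is 1 clone, whether the drug was present at harvest, or whether the 3 libraries of a group came from separate cultures, so p-values measure only the spread between these libraries.

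MYC, MYCN and MYCL bind DNA as pairs with MAX at E-boxes, whose best known form is CACGTG, and raise transcription of genes for growth, ribosome production and metabolism. MXD1, MXD3, MXD4, MXI1 (also called MXD2) and MNT pair with MAX too, occupy the same sites and recruit SIN3 and histone deacetylases, which lowers transcription. MLX is the MAX-like hub of a sister branch: it pairs with MLXIP (MondoA) and MLXIPL (ChREBP), which sense glucose products and are prominent in liver, and also with MXD1, MXD4 and MNT.

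Because the network reads and is wired through the E-box, the stretch of 250 bases before the start site was searched in RefSeq (GRCh38.p14) for CACGTG, a palindrome that reads the same on both strands. Of the 10 members, 9 matched by symbol, with 12 start sites between them. MYC is the member that did not match. CACGTG was present in 3 of those 12 windows, against 2228 of all 35116 windows, 6.34%, and 8.30% of the windows of genes tested below. The 3 windows belong to MNT, MXD4 and MLX, and they are shown because each is a member whose own level differed between the groups. Capitals mark CACGTG, and each sequence runs 5′ to 3′ on the strand of its gene and ends at the base before the start site.
MNT: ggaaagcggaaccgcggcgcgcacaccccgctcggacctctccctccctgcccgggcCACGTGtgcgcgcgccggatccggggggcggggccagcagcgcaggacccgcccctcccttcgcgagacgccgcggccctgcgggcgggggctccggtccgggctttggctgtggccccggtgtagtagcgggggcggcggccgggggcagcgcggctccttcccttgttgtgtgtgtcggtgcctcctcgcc
MXD4: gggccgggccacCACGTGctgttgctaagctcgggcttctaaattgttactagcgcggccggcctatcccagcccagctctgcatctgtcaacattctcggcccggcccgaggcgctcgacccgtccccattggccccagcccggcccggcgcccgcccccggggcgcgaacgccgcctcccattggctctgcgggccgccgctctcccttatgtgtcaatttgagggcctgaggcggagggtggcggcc
MLX: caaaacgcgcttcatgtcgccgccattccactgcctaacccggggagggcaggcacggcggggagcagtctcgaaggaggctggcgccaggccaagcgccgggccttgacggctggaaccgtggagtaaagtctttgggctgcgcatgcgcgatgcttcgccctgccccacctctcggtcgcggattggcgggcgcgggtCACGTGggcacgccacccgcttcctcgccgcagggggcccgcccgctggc
MXD1: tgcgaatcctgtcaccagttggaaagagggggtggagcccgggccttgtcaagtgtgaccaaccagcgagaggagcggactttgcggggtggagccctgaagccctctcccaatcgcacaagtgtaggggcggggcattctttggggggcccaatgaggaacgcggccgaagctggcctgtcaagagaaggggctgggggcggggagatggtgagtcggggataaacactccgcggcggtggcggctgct
The MNT window lies at chr17:2401061-2401310 on the minus strand, with the first base of CACGTG at position -193 from the start site. The MXD4 window lies at chr4:2262110-2262359 on the minus strand, with CACGTG from position -238. The MLX window lies at chr17:42566850-42567099 on the plus strand, with CACGTG from position -50. The MXD1 window, at chr2:69914859-69915108 on the plus strand, is given for comparison because MXD1 had the largest ratio among members that were higher in resistant cells and no CACGTG in this stretch. The 3 genes with the letters did not share a direction, since MNT was higher and MXD4 and MLX were lower in resistant cells. Among 151 windows of the textbook MYC target genes listed further on, 26 held CACGTG, 17.2%. A looser search took CATGTG into account besides. It also allowed for the letters CACGCG, again on both strands, and still counted the first motif. It found a match in the same number of members' windows, 3 of 12, and in 33.8% of the targets' windows. The share was 23.6% in all windows and 26.8% in the windows of genes tested below. The windows also differed in base content. Their median share of G and C was 68.6% for members, 66.0% for the targets, 58.0% for all windows and 64.8% for tested genes. The part of base content in the shares with a match was not tested. A match in these letters is a description of the sequence and no measure of binding.

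The files give 1 value per gene and library in FPKM, fragments scaled to transcript length and to library size, so levels of different genes can be compared per length. Summed reads recovered from the steps between values ranged from 32593464 to 35673127 per library. Of the 11694 genes with at least 1 FPKM in at least 3 libraries, 67.7% passed the test between groups (limma on log2(FPKM + 1), called at a Benjamini-Hochberg adjusted p under 0.05), 35.2% higher and 32.5% lower in resistant cells. The values of the 2 groups did not overlap for 74.4% of genes (39.3% higher and 35.1% lower in resistant cells), so a difference in a member is read against a background in which most genes differed. Hepatocyte markers, as a check of the label, fell together: 17 of 17 tested were lower, beside 32.5% of all genes. Their summed levels were 5274 to 5462 FPKM in sensitive and 22.5 to 54.1 FPKM in resistant libraries. HNF4A, a defining liver transcription factor, went from 29.7 to 0.0655 FPKM. Only 8 of the 17 reached 1 FPKM in both groups, and all 8 were lower. The others, HNF4A among them, reached 1 FPKM in the sensitive group only, so a difference was built into their selection. Markers of fibroblasts and endothelium were low in both groups. Fibroblast markers summed to 0.938 to 1.85 FPKM in sensitive and 2.35 to 3.46 FPKM in resistant libraries, the latter mostly ACTA2. The 1 fibroblast marker tested was called higher and reached 1 FPKM in the resistant group only. Endothelial markers summed to at most 0.348 FPKM. The leukocyte list went from 250 to 268 FPKM in sensitive libraries to 2.76 to 5.43 FPKM in resistant ones through LYZ, with PTPRC, the marker of all leukocytes, listed at 0 in all 6. Mitochondrial mRNAs made up 16.3 to 17.4% of the summed FPKM in sensitive and 7.18 to 7.84% in resistant libraries, and 12 of 13 were called lower, with a median change of -1.42 on the log2(FPKM + 1) scale. The part of these shifts in the results below was not tested, and in bulk RNA fewer cells of a type and less RNA per cell cannot be told apart. Sensitive replicate 3 stood somewhat apart from its group, with correlations of 0.952 and 0.964 to the other 2, which correlated at 0.995 with each other. Libraries of different groups correlated at 0.680 to 0.706. That both groups come from 1 line rests on the labels and was not tested.

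Of the 10 members, 9 passed the level filter and 8 of the 9 were called, beside 67.7% of all genes. MYC, MAX, MXD1 and MNT rose in resistant cells, and MYCL, MXD3, MXD4 and MLX fell. MXI1 was not called and MYCN was listed at 0. The median absolute change of all tested genes was 0.75 on the log2(FPKM + 1) scale, and the 8 called members ranged from 1.12 to 2.24 in size. MYCL and MXD1 passed the filter through 1 group only, so a difference was built into their selection.

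**Figure D1:**
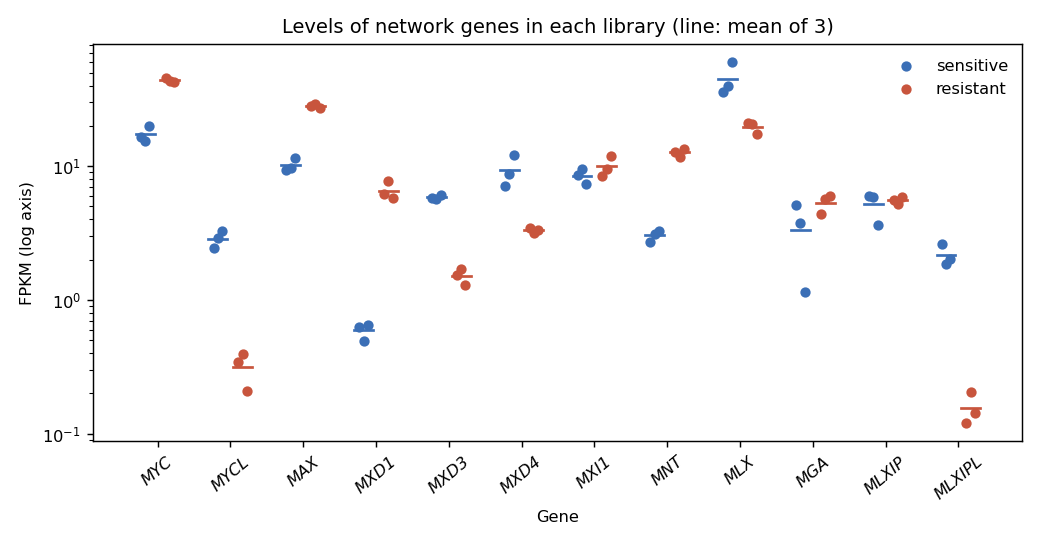
Level of each network gene in every library, in FPKM on a log axis, with sensitive libraries in blue, resistant libraries in red and a line at each mean of 3. The groups are apart for 8 of the 9 tested members, beside 74.4% of all tested genes, and overlap for MXI1. MYCN, at 0, cannot be drawn, and MGA, MLXIP and MLXIPL are partners outside the 10.

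MYC, the broadly expressed activator of the family, measured 16.6, 15.3 and 19.9 FPKM in the 3 sensitive libraries and 45.9, 43.1 and 42.5 FPKM in the 3 resistant ones. Each resistant library was above every sensitive library, and the values within a group lay close together. The means were 17.3 ± 2.38 (SD, n = 3) and 43.8 ± 1.82 (SD, n = 3) FPKM, a ratio of 2.54, with a change of 1.30 on the log2(FPKM + 1) scale (SE 0.12, limma adjusted p = 9.51e-05). Behind these values stood 2775 to 3490 reads per sensitive library and 7566 to 8115 per resistant library.

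MYCL, the family member first found in lung cancer, went the other way. Its level was 2.43, 2.92 and 3.27 FPKM in sensitive cells and 0.342, 0.393 and 0.209 FPKM in resistant cells. All sensitive values were higher, and resistant cells kept only 40 to 75 reads per library. The mean was 9.14 times as high in sensitive cells (2.88 ± 0.421 against 0.315 ± 0.0949 FPKM, SD, n = 3), and the change was -1.56 on the log2(FPKM + 1) scale (SE 0.12, limma adjusted p = 2.90e-05). MYCN, best known from neuroblastoma, was listed at 0 in all 6 libraries and was not tested.

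Summed over the family, MYC and MYCL gave 19.0, 18.2 and 23.2 FPKM in sensitive libraries and 46.2, 43.5 and 42.7 FPKM in resistant ones. MYC supplied most of this in both groups, and MYCL's share of the family sum went from 14.3 ± 1.62% to 0.711 ± 0.208% (SD, n = 3). By RNA, the activating arm was MYC with a minor part of MYCL in sensitive cells and MYC almost alone in resistant cells.

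MAX, the obligate partner of both arms, measured 9.35, 9.63 and 11.5 FPKM in sensitive libraries and 28.3, 29.2 and 27.1 FPKM in resistant libraries. The groups were well apart. Its mean rose from 10.1 ± 1.14 to 28.2 ± 1.05 FPKM (SD, n = 3), a ratio of 2.78 and a change of 1.39 (SE 0.11, limma adjusted p = 4.81e-05) on the log2(FPKM + 1) scale. The ratio for MAX was close to that for MYC, and the difference between these ratios was not tested.

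**Figure D2:**
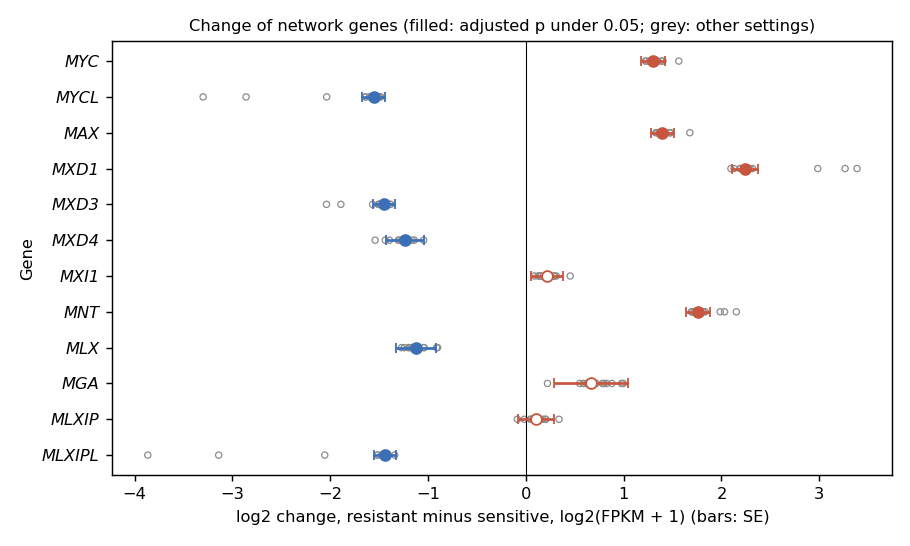
Change of each network gene between resistant and sensitive cells on the log2(FPKM + 1) scale, with SE bars; filled points passed the test, open grey circles are the other processing settings. MYC, MAX, MXD1 and MNT lie between 1.30 and 2.24, MYCL, MXD3, MXD4 and MLX between -1.56 and -1.12, and MLXIP falls on both sides of 0 depending on the setting.

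The repressive arm changed its composition. MXD1 (MAD1), which is induced as many cell types stop dividing and mature, measured 0.632, 0.494 and 0.651 FPKM in sensitive libraries and 6.16, 7.79 and 5.77 FPKM in resistant ones. It was below 1 FPKM in every sensitive library and above 5 FPKM in every resistant library. Its mean went from 0.592 ± 0.0854 to 6.57 ± 1.07 FPKM (SD, n = 3), a ratio of 11.1 and a change of 2.24 (SE 0.13, limma adjusted p = 1.003e-05) on the log2(FPKM + 1) scale, from 110 to 140 reads per sensitive library to 1262 to 1702 per resistant library.

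MNT, a large and widely expressed MAX partner that opposes MYC, was the other repressor that rose. It stood at 2.69, 3.10 and 3.30 FPKM in sensitive cells and at 12.9, 11.8 and 13.4 FPKM in resistant cells. The lowest resistant value was several times the highest sensitive one. The mean rose from 3.03 ± 0.310 to 12.7 ± 0.836 FPKM (SD, n = 3), a ratio of 4.18, with a change of 1.76 on the log2(FPKM + 1) scale (SE 0.12, limma adjusted p = 1.99e-05).

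MXD3, a family member known from dividing cells, fell. Its level was 5.73, 5.71 and 6.07 FPKM in sensitive libraries and 1.53, 1.71 and 1.28 FPKM in resistant libraries. The sensitive mean of 5.84 ± 0.200 FPKM was 3.87 times the resistant mean of 1.51 ± 0.216 FPKM (SD, n = 3), and the log2(FPKM + 1) value fell by 1.45 (SE 0.11, limma adjusted p = 3.97e-05). The strand setting of the counting is not given, and in GENCODE release 29 MXD3 shares 22.5% of its exonic bases with PRELID1 on the opposite strand and 18.0% with RAB24 on the same strand. PRELID1 went from a mean of 431 to 172 FPKM and RAB24 from 43.2 to 11.995 FPKM, so reads of MXD3 and of these neighbours cannot be told apart where they overlap.

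MXD4, another MAX partner of this family, measured 7.14, 8.70 and 12.2 FPKM in sensitive cells and 3.45, 3.15 and 3.32 FPKM in resistant cells. The sensitive libraries were spread, with replicate 3 the highest, yet all lay above the resistant ones. The sensitive mean was 2.83 times the resistant mean (9.35 ± 2.59 against 3.31 ± 0.148 FPKM, SD, n = 3), and the log2(FPKM + 1) value fell by 1.24 (SE 0.19, limma adjusted p = 0.00106).

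MXI1, also known as MXD2, was the tested member with no call. It measured 8.53, 9.49 and 7.30 FPKM in sensitive libraries and 8.50, 9.48 and 11.98 FPKM in resistant libraries. The groups overlapped, with 2 resistant libraries inside the sensitive range. The change was 0.21 on the log2(FPKM + 1) scale (SE 0.16, limma adjusted p = 0.278).

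The sum of MXD1, MXD3, MXD4 and MXI1 was 22.03, 24.4 and 26.2 FPKM in sensitive libraries and 19.6, 22.1 and 22.3 FPKM in resistant ones. These ranges overlapped, and the ratio of the means was 0.883 in FPKM and 1.04 after rescaling each library to TPM (FPKM scaled to 1 common sum), so its direction depends on the scale. With MNT added, the sum was 24.7, 27.5 and 29.5 FPKM in sensitive and 32.5, 33.9 and 35.7 FPKM in resistant libraries, and those ranges did not overlap.

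Shares within this sum do not depend on how libraries are scaled. MXD3 and MXD4 together with MXI1 made up most of it in sensitive cells: MXD3 took 21.5 ± 1.46%, MXD4 34.0 ± 6.55% and MXI1 31.2 ± 5.65% (SD, n = 3). In resistant cells MNT took 37.2 ± 2.44%, MXI1 29.2 ± 3.83% and MXD1 19.4 ± 3.44% (SD, n = 3). MNT had 11.1 ± 0.207% and MXD1 2.19 ± 0.379% in sensitive cells, while MXD3 and MXD4 had 4.45 ± 0.766% and 9.74 ± 0.761% in resistant cells (SD, n = 3). The share of MXI1 ran from 24.7 to 34.5% in sensitive and from 26.1 to 33.5% in resistant libraries, an overlap that none of the other 4 shares showed.

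The MYC family sum divided by the sum of the MXD family and MNT was 0.770, 0.663 and 0.786 in sensitive libraries and 1.42, 1.28 and 1.19 in resistant libraries. The ratio was below 1 in each sensitive library and above 1 in each resistant library. Without MXD3, which shares the most exonic bases with other genes, it was 1.00, 0.837 and 0.989 in sensitive and 1.49, 1.35 and 1.24 in resistant libraries, a choice added after seeing the data, and the groups still did not overlap, but sensitive replicate 1 was no longer below 1. MNT shares 12.2% of its exonic bases with AC006435.1 on the opposite strand, which has no value here. MXD1 shares 3.73% with SNRNP27 on the same strand, at a mean of 17.6 FPKM in sensitive and 16.2 FPKM in resistant cells. Relative to MAX, both arms were smaller in resistant cells. The MYC family held 2.04, 1.89 and 2.03 times the level of MAX in sensitive libraries and 1.63, 1.49 and 1.57 times in resistant ones. The MXD family and MNT held 2.64, 2.86 and 2.58 times the level of MAX in sensitive libraries and 1.15, 1.16 and 1.32 times in resistant ones. These ratios are descriptions of RNA per length in each library, with no test, and say nothing of protein.

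**Figure D3:**
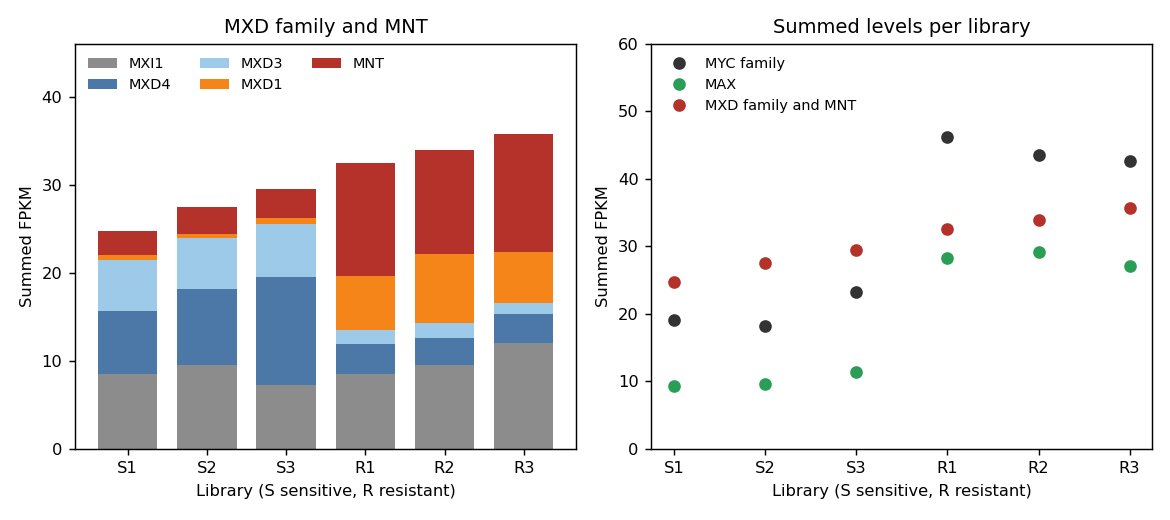
Left, stacked FPKM of MXI1, MXD4, MXD3, MXD1 and MNT in each library (S sensitive, R resistant); right, summed FPKM of the MYC family, of MAX and of the MXD family with MNT in each library. MNT and MXD1 take 37.2% and 19.4% of the stack in resistant cells against 11.1% and 2.19% in sensitive cells, and the MYC family lies above the MXD family and MNT only in the resistant libraries.

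MLX, the hub of the glucose-sensing branch, measured 35.6, 39.4 and 60.04 FPKM in sensitive cells and 21.01, 20.6 and 17.3 FPKM in resistant cells. Every sensitive library was higher, and replicate 3 was the highest of them. The sensitive mean of 45.0 ± 13.2 FPKM was 2.29 times the resistant mean of 19.6 ± 2.03 FPKM (SD, n = 3), and the log2(FPKM + 1) value fell by 1.12 (SE 0.21, limma adjusted p = 0.00247). MLX shares 18.1% of its exonic bases with PSMC3IP on the opposite strand, which moved the other way, from a mean of 12.4 to 30.0 FPKM.

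Its liver partner MLXIPL (ChREBP), not one of the 10, measured 2.62, 1.84 and 2.01 FPKM in sensitive and 0.119, 0.206 and 0.143 FPKM in resistant libraries. It passed the level filter through the sensitive group only. The sensitive mean was 13.8 times the resistant mean, and the log2(FPKM + 1) value fell by 1.44 (SE 0.11, limma adjusted p = 3.48e-05). Its other partner MLXIP (MondoA) measured 5.96, 5.92 and 3.65 FPKM in sensitive and 5.55, 5.23 and 5.85 FPKM in resistant libraries, with overlapping groups, a change of 0.11 (SE 0.18, limma adjusted p = 0.628) and a sign that turned under quantile normalization (-0.016) and without sensitive replicate 3 (-0.086). MGA, a very large MAX partner, measured 5.12, 3.78 and 1.14 FPKM in sensitive and 4.35, 5.65 and 6.03 FPKM in resistant libraries. Its change of 0.67 (SE 0.38, limma adjusted p = 0.158) was not called. It was called without sensitive replicate 1 (0.98, limma adjusted p = 0.0443) and was 0.22 (limma adjusted p = 0.216) without sensitive replicate 3.

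The order of levels changed accordingly. In sensitive cells MLX stood highest, followed by MYC, and the ranges of these did not overlap with each other or with the next. MAX, MXD4 and MXI1 came after MYC and overlapped from neighbour to neighbour, and MXD3 followed below them. MNT and MYCL overlapped, and MXD1 lay below every other member that was detected. In resistant cells MYC was highest, then MAX, then MLX, each without overlap with the next. MNT and MXI1 overlapped, MXD1 lay below them, and MXD4, MXD3 and MYCL followed in that order with no overlap between neighbours among the members. MYC thus moved from below MLX to the top, and MYCL took the lowest place among detected members that MXD1 held in sensitive cells.

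The profile of MYC over the 6 libraries was set against that of every other gene with a mean of at least 5 FPKM, 7395 genes in all, by the root mean square distance between centred log2(FPKM + 1) values. The nearest were AATF, a nucleolar protein of ribosome production (distance 0.0586, from 49.6 to 125 FPKM), PPP1R13L, a p53-binding inhibitor (0.0587, from 9.13 to 25.8 FPKM), and KIFC2, a kinesin motor (0.0681, from 5.59 to 14.7 FPKM). With 2 groups and 6 libraries, such likeness amounts mostly to a group difference of the same size.

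The surroundings of the members were counted around the network in 14 lists of 247 genes in the files, 224 of them tested. Of these, 81 were called higher and 59 lower, 62.5% against 67.7% of all genes, with a median change of 0.16 against 0.076 for all genes on the log2(FPKM + 1) scale. In TPM, which moves the median of all genes by 0.23, the split was 102 higher and 43 lower. No list was tested as a set. The counts of each list below are to be read beside 35.2% of all genes higher and 32.5% lower. For genes named below, means ± SD are in FPKM (n = 3), and the change that follows them, or stands after "by", is on the log2(FPKM + 1) scale with the adjusted p of limma. CCND2, NDRG2, G6PC1, LIN28B and LRATD2 among them passed the level filter through 1 group only, so a difference was built into their selection.

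The SIN3 and histone deacetylase complex, which the MXD proteins and MNT bring to DNA, had 7 of 20 tested members higher, 6 lower and 7 not called, with a median change of 0.16. The share called was 65.0%, near the 67.7% of all genes. NCOR1, a nuclear receptor corepressor that carries HDAC3, rose from 8.92 ± 4.23 to 39.7 ± 2.03 FPKM (2.15, adjusted p = 0.00127). SIN3B, a scaffold that binds MXD proteins, rose by 0.89 and ARID4A, a complex member, by 0.90. Both calls were lost against a 1.5-fold change (limma adjusted p = 0.0621 and 0.188). Of the 6 lower, SIN3A fell from 13.6 ± 1.81 to 10.1 ± 0.835 FPKM (-0.39, adjusted p = 0.0387). HDAC3 fell from 50.5 ± 2.72 to 29.3 ± 0.965 FPKM (-0.76, adjusted p = 0.000363), and these 2 were named after their values were seen. The lower calls numbered 3, 2 and 3 without resistant replicate 1, 2 or 3, and 1 in TPM.

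Cofactors through which MYC activates genes had 8 of 17 tested members higher and 3 lower (10 and 1 in TPM), with a median change of 0.28. ACTL6A, an actin-like subunit of chromatin remodellers, rose from 20.99 ± 6.17 to 55.6 ± 2.47 FPKM (1.41), and KAT2A (GCN5), a histone acetyltransferase recruited by MYC, fell from 20.5 ± 4.60 to 7.50 ± 0.855 FPKM (-1.32). CTR9 and CDC73 of the PAF1 elongation complex moved in opposite directions (-1.27, adjusted p = 0.0164, and 1.09, adjusted p = 0.0215). The change of CDC73 was 0.70 without sensitive replicate 3, where it kept its call. Both calls were lost without any 1 of the resistant libraries, with adjusted p from 0.0511 to 0.0551 for CTR9 and from 0.0601 to 0.0722 for CDC73, while the changes stayed at -1.30 to -1.24 and 1.07 to 1.11, and that of CTR9 also without sensitive replicate 2 (0.0558) and in TPM (0.0512).

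Genes of MYC protein turnover and modification had 11 of 25 tested members higher and 7 lower, with a median change of 0.25. The lower calls numbered 4 without resistant replicate 2, without resistant replicate 3 and in TPM. TRIB3, a pseudokinase of the stress response, was at 9.80, 10.1 and 56.1 FPKM in sensitive libraries and 154, 143 and 128 FPKM in resistant ones, with sensitive replicate 3 apart from its group (2.91, adjusted p = 0.00515). SET, an inhibitor of the phosphatase that acts on MYC, rose from 70.6 ± 18.0 to 230.2 ± 17.4 FPKM (1.72), and the nucleolar MYC deubiquitinase USP36 rose by 1.51. Of the 7 lower, STUB1 fell from 99.9 ± 14.5 to 38.7 ± 0.548 FPKM (-1.33) and AURKA from 132 ± 24.7 to 62.7 ± 7.09 FPKM (-1.05). GSK3A was among the 11 higher, from 28.8 ± 2.98 to 70.5 ± 2.75 FPKM (1.27), and these 3 were named after their values were seen. FBXW7, the best known ubiquitin ligase adaptor of MYC and named here after its values were seen, went from 2.86 ± 0.954 to 1.77 ± 0.0476 FPKM without a call (-0.45, adjusted p = 0.0808), but was called without sensitive replicate 3 (-0.67, adjusted p = 0.000152).

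**Figure D4:**
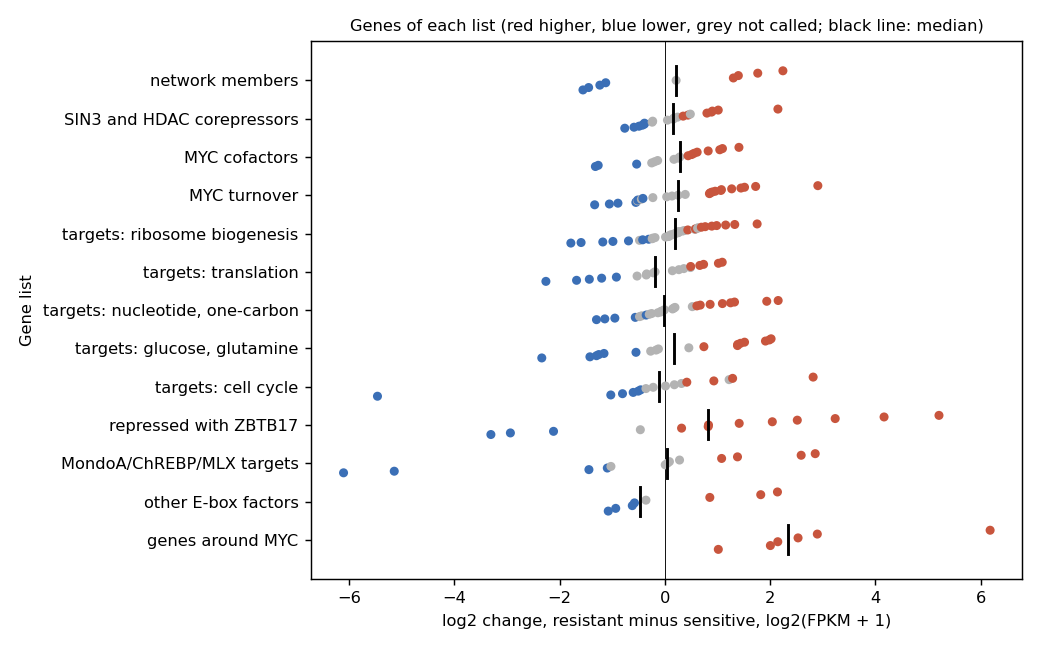
Change of each tested gene on the lists around the network, on the log2(FPKM + 1) scale; red genes were called higher and blue genes lower in resistant cells, grey genes were not called, and black lines are medians. The 5 lists of MYC target genes spread to both sides of 0 with medians from -0.19 to 0.20, and the 6 genes around MYC all lie above 1.

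Textbook MYC target genes moved in both directions. Of 115 tested over 5 lists, 34 were called higher and 29 lower, 54.8% called against 67.7% of all genes, with a median change of 0.11. In TPM the split was 49 higher and 23 lower, and without sensitive replicate 3 the lower calls numbered 44. NCL (nucleolin), ODC1 (ornithine decarboxylase) and LDHA (lactate dehydrogenase A), 3 of the most cited targets, named after their values were seen, gave changes of 0.57 (adjusted p = 0.171), 0.17 (adjusted p = 0.172) and -0.55 (adjusted p = 0.00168). ODC1 was called higher in TPM (0.40, adjusted p = 0.0215), and without sensitive replicate 3 the changes of NCL and ODC1 were 0.15 and 0.10. LDHA lost its call against a 1.5-fold change. NCL shows the spread that 1 library brings: it was 326, 297 and 129 FPKM in sensitive libraries and 344, 351 and 340 FPKM in resistant ones.

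On the target list named for ribosome production and the nucleolus, 9 of 36 genes were higher, 7 lower and 20 not called, with a median of 0.20. The higher calls numbered 16 in TPM and also 16 without sensitive replicate 3. GNL2, a nucleolar GTPase, rose by 1.75 and NOP58, a core protein of small nucleolar particles, by 1.33. NHP2, of another class of those particles, fell by 1.59. The call of NOP58 was lost against a 1.5-fold change (limma adjusted p = 0.0801). TBRG4, whose part in ribosome production was not checked, fell by 1.79. Translation factors and chaperonins had 5 of 19 higher and 5 lower, with a median of -0.19. The mitochondrial chaperonin partner HSPE1 fell by 2.26, the initiation factor EIF3B by 1.68, and the chaperonin subunits TCP1 and CCT3 by 1.44 and 1.20. Their lower calls numbered 9 without sensitive replicate 3.

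Nucleotide, polyamine and one-carbon genes had 8 of 26 higher and 5 lower, with a median of -0.017. MTHFD2, the mitochondrial folate enzyme, rose from 29.01 ± 6.43 to 130.5 ± 4.50 FPKM (2.15) and SHMT1, its cytosolic companion in one-carbon flow, by 1.32. The paralogous IMP dehydrogenases of guanine synthesis went opposite ways: IMPDH1 rose by 1.93, and IMPDH2 fell by 1.30. The lower calls in this list numbered 3 to 11 when 1 library was left out, 11 without sensitive replicate 3 and 3 without sensitive replicate 2 or any 1 resistant library.

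Glucose and glutamine genes had 8 of 18 higher and 6 lower, with a median of 0.17. Transporters that rose included the glucose carrier SLC2A1 (GLUT1), from 18.9 ± 6.20 to 77.5 ± 10.5 FPKM (2.02), and the amino acid carrier SLC7A5 (LAT1), from 114 ± 46.2 to 411 ± 21.1 FPKM (1.91). PFKM, a phosphofructokinase, rose by 1.98, and PGK1, a later enzyme of glycolysis, fell by 2.34. Cell cycle targets had 4 of 16 higher and 6 lower (7 and 4 in TPM), with a median of -0.11. ID2, an inhibitor of basic helix-loop-helix factors, fell from 113 ± 22.3 to 1.57 ± 0.336 FPKM (-5.46). CCND2 (cyclin D2) rose from 0.0272 ± 0.00755 to 6.27 ± 0.863 FPKM (2.82), RIOX2 rose by 1.29, and the DNA repair endonuclease APEX1 fell by 1.03. The call of RIOX2 was lost against a 1.5-fold change (limma adjusted p = 0.0821).

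Genes that MYC is known to repress with ZBTB17 (MIZ1) had 9 of 13 tested members higher and 3 lower, with a median of 0.83, beside 35.2% of all genes higher, and 6 further genes in the files were under the level filter. The cell cycle inhibitor CDKN1A (p21) rose from 6.97 ± 1.94 to 140 ± 13.5 FPKM (4.16, adjusted p = 2.67e-06). GADD45A, a growth arrest gene, was 9.31, 8.93 and 37.2 FPKM in sensitive libraries and 646, 600 and 506 FPKM in resistant ones (5.21, adjusted p = 0.000109). The laminin receptor subunit ITGA6 rose by 3.24, and NDRG2, a differentiation gene, fell by 3.31. The higher calls on this list numbered 5 against a 1.5-fold change, and 8 of 11 among its genes with at least 1 FPKM in both groups.

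Target genes of MondoA, ChREBP and MLX had 4 of 13 tested members higher, 4 lower and 5 not called, with a median of 0.047. G6PC1, the liver enzyme that releases glucose, fell from 89.0 ± 29.05 to 0.272 ± 0.264 FPKM (-6.10) and the fatty acid desaturase SCD from 352 ± 69.8 to 8.998 ± 2.00 FPKM (-5.14), beside the fall of hepatocyte markers, whose part was not tested. KLF10 rose by 2.86 and ARRDC3, an arrestin-like protein, by 2.59. TXNIP, the classical MondoA target, was listed at 0 in every sensitive library and at 0.302, 0.492 and 0.530 FPKM in resistant ones, under the filter.

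Of the 8 tested factors from other families that read E-boxes, 3 were higher and 4 lower, with a median of -0.47. SREBF1, a regulator of fatty acid synthesis, rose from 10.0 ± 1.08 to 47.4 ± 2.20 FPKM (2.14), and TFE3, a lysosomal regulator, by 1.82. SREBF2, its cholesterol counterpart, fell by 1.08, and USF1, a broadly expressed E-box factor, fell by 0.93. RNA regulators of the MYC family had none of 7 tested members higher and 3 lower, with 6 lower without sensitive replicate 3 and 1 higher without sensitive replicate 1. The 3 are oncofetal RNA-binding proteins: LIN28B fell from 17.0 ± 9.36 to 0.122 ± 0.0447 FPKM (-3.83), and IGF2BP1 and IGF2BP3, which stabilise MYC RNA, fell by 1.96 and 1.28.

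The genes next to MYC rose with it. On a list of 10 neighbours and non-coding RNAs of that region, 6 were tested and 6 were higher, with a median of 2.34, beside 35.2% of all genes higher. The other 4 were under the level filter, and LRATD2 passed it through the resistant group only, which leaves 5 of 5 with a median of 2.14 among genes with at least 1 FPKM in both groups. PVT1, the long non-coding RNA that follows MYC, measured 1.56, 1.58 and 3.71 FPKM in sensitive libraries and 22.9, 23.9 and 20.6 FPKM in resistant ones. The groups were far apart, at 120 to 279 against 1574 to 1823 reads, and the change was 2.90 on the log2(FPKM + 1) scale (SE 0.25, limma adjusted p = 6.17e-05). LRATD2 went from 0.108 ± 0.0380 to 79.4 ± 6.07 FPKM (6.18), the signalling scaffold ASAP1 from 4.10 ± 1.35 to 27.7 ± 1.67 FPKM (2.53) and the non-coding RNA CCAT1 from 1.48 ± 0.257 to 9.92 ± 0.629 FPKM (2.14). MYC, with a change of 1.30, moved less than 5 of these 6.

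A wider count was made after these values were seen, of the 20 nearest tested genes on each side by RefSeq order. Around MYC, 29 of 40 were higher and 2 lower, 72.5% higher against 35.2% of all genes, with a median of 1.24. On the side of PVT1, 18 of 20 were higher and 0 lower, and on the other side 11 of 20 were higher. The 2 that fell were SQLE, a cholesterol enzyme, from 30.8 to 13.5 FPKM, and MTSS1, from 1.71 to 0.0271 FPKM. MTSS1 passed the level filter through the sensitive group only. The rest of the tested genes of that chromosome, 389 in all, had 176 higher and 83 lower, with a median of 0.35.

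Neighbours of MNT were also mostly higher. Of its 40 nearest tested genes, 32 were higher and 5 lower, 80.0% higher, with a median of 1.20, against 295 higher and 216 lower of the other 723 tested genes of its chromosome and a median there of 0.19. PRPF8, a core splicing factor, went from 66.7 to 171 FPKM, the single-stranded DNA-binding protein RPA1 from 19.7 to 83.7 FPKM, and the decay endonuclease SMG6, which lies near MNT, from 2.40 to 11.9 FPKM. The 5 that fell were SERPINF1 and SERPINF2, secreted liver proteins, at 38.5 and 57.2 FPKM in sensitive and 0.559 and 0.439 FPKM in resistant cells, and CCDC92B, TRPV1 and EMC6. The call of EMC6 (-0.62, adjusted p = 0.0152) was lost without resistant replicate 2 (adjusted p = 0.0587), and the other 4 passed the level filter through the sensitive group only.

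The count was read over the other members in the same way. Around MAX 18 of 40 were higher and 7 lower, and around MXD1 19 were higher and 10 lower, beside 35.2% of all genes higher. Around the members that fell, lower neighbours were the more numerous: 18 against 11 for MYCL, 18 against 7 for MXD3, 16 against 11 for MXD4 and 17 against 9 for MLX. Of all tested genes, 32.5% were lower. The median changes of these neighbours were small, at -0.061, -0.14, -0.11 and -0.17 in that order, against 0.076 for all genes. The sides of MXD4 differed, with 1 higher and 12 lower before it and 10 higher and 4 lower after it. MXI1, which was not called, had 21 lower and 9 higher. With genes of at least 1 FPKM in both groups only, 20 of 30 neighbours of MYC and 28 of 32 neighbours of MNT were higher, against 32.2% of all 9888 such genes. The number of gene copies was not measured here, and no test was made of these counts, since neighbouring genes are not independent.

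**Figure D5:**
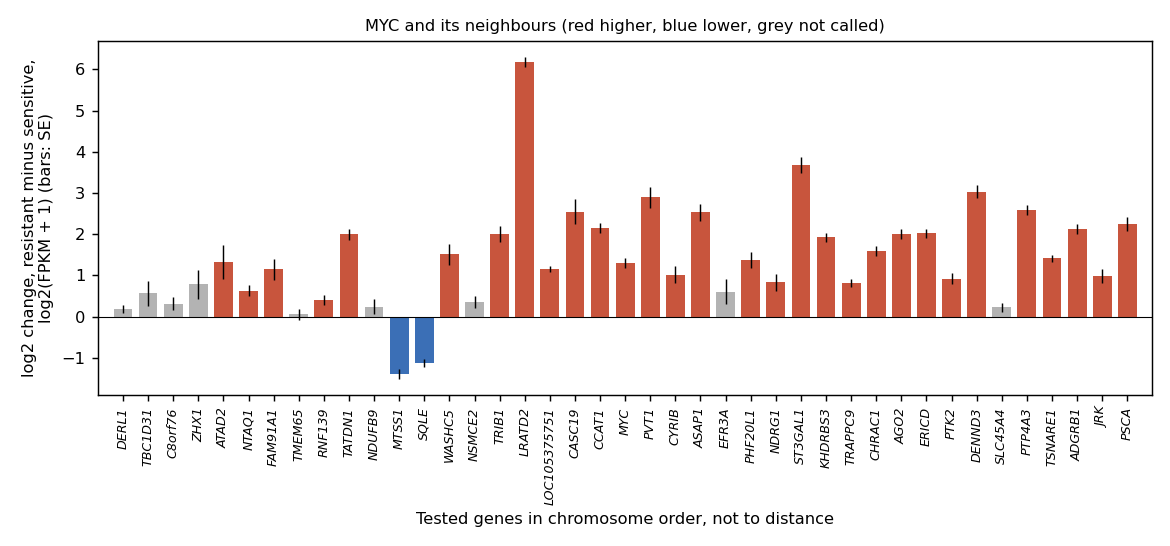
Change of MYC and of its 20 nearest tested genes on each side, in chromosome order and not to distance, on the log2(FPKM + 1) scale with SE bars; red genes were called higher, blue genes lower, grey genes not called. 29 of the 40 neighbours are higher in resistant cells and 2, SQLE and MTSS1, are lower.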

How the data were processed

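RNA-seq of 6 libraries, 3 per group, was analysed, with groups and replicate numbers from the sample titles. The authors deposited 1 FPKM value per gene symbol and library, a unit inferred from the values (RPKM would look alike). Per the submitters' processing notes, cutadapt and HISAT2 were used on the reads. How reads were counted, on which strand, build and annotation, is not given in the sources used here. Whole reads were recovered for 99.7% of tested genes, within 0.01 read, and the value of 1 read differed by at most 3.46% between libraries.

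Genes with at least 1 FPKM in at least 3 libraries were tested with limma 3.58.1 (limma-trend, R 4.3.3) on log2(FPKM + 1), with a pseudocount of 1, no block and Benjamini-Hochberg adjustment over all tested genes; fold changes on this scale understate those of low genes. Unless marked FPKM, changes in parentheses are log2(FPKM + 1) differences. Sums, shares and distances were computed with Python 3.11.15. The fit was first tested on simulated data. No 2 libraries were identical.

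The members, the lists and the neighbour counts were chosen with earlier results of these data known. Named are all members, up to 4 called genes per list by size of change with groups apart, the 3 profiles nearest to MYC and genes marked as chosen later. Some genes that the rule names are left out here. List symbols were matched by RefSeq synonyms where needed. Alternatives covered scaling, pseudocount, filter, model, a 1.5-fold test, a replicate block and leaving out each library.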

Additional observations from a re-analysis of the deposited data

How the results depend on the processing

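All 159 recomputed changes of the 9 tested members kept their direction and their call over up to 18 alternatives, 2 of which were added after seeing the data (limma-voom on recovered reads and scaling without mitochondrial mRNAs). MXD1, MXD3 and MYCL dropped out at a mean of at least 5 FPKM, which left 6 members with 5 called, 2 of them lower. The highest limma adjusted p of a called member in any of them was 0.0477, for MLX. Of 7920 genes called (4117 higher, 3803 lower), 4973 (2465 higher, 2508 lower) were called at that stricter filter, where fewer genes were tested, and 4357 (2217 higher, 2140 lower) against a 1.5-fold change. The lists' 140 calls (81 higher, 59 lower) became 75 (43 higher, 32 lower) against a 1.5-fold change. MLXIP, not called, turned to -0.016 under quantile normalization and to -0.086 without sensitive replicate 3 (0.20 without sensitive replicate 1 and 0.34 in TPM); the cause was not tested. Leaving out 1 library gave 6675 to 9442 calls over all genes and 117 to 181 on the lists, the most without sensitive replicate 3. Among 70 other named genes, 1232 of 1253 recomputed changes kept their call and none reversed. SIN3A, HDAC3, STUB1, AURKA, GSK3A and SNRNP27 are not in that count. Against a 1.5-fold change, 8 of the 70 lost their call: ARID4A, CDC73, CTR9, EMC6, LDHA, NOP58, RIOX2 and SIN3B.

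With the replicate number as a block, 7193 genes were called (3716 higher, 3477 lower), 8 members among them, and the lower calls on the SIN3 and histone deacetylase list went from 6 to 3 (13 to 8 in both directions). Same-numbered libraries deviated from their group means with correlations of -0.42, 0.07 and -0.23. With 3 libraries per group, these values cannot show whether equal numbers belong together, and the labels do not say.

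Depth limits MYCL in resistant libraries to 40 to 75 reads and MXD1 in sensitive libraries to 110 to 140 reads, and MYCN was not detected.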
